A study of Mus musculus with 6 samples.

Results

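The primary (azurophil) granule genes of neutrophils were described in bulk RNA-seq of mouse bone marrow. The group held 10 genes chosen by name, Mpo, Elane, Prtn3, Ctsg, Ms4a3, Fcnb, Ctsc, Srgn, Serpinb1a and Igsf6, of the 56496 genes in the deposited table. The 4T1 model is a mouse mammary carcinoma line grown in Balbc mice, and here female animals had their tumour removed. The Onway group (libraries 1, 2 and 3, labelled day 14) then received Onway by gavage for 2 weeks, and the Control group (libraries 4, 5 and 6, labelled day 0) received none. The composition of Onway is not stated in the labels, which give all 6 libraries as wild type. Both groups shared the tumour and its resection, and because treatment goes with the labelled day, the effects of these cannot be told apart. The treatment text says that marrow was taken after treatment, which does not explain why Control is labelled day 0. No label ties a library to a separate animal, so the p-values rest on the spread among the 6 libraries, which may be technical.

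Primary granules are the first granules that a developing neutrophil makes, at the promyelocyte stage. The genes of their main enzymes, Mpo, Elane, Prtn3 and Ctsg, are transcribed mostly there. The secondary and tertiary granule genes are transcribed later in turn. The mRNAs of those enzymes thus mark a stage of maturation, while the proteins persist in the mature cell. Whether the other members, such as Ctsc, Srgn, Serpinb1a and Igsf6, mark that stage was not tested here. The granules carry myeloperoxidase and serine proteases, which are made as inactive precursors, trimmed by cathepsin C and packed onto the proteoglycan serglycin. The transcription factors PU.1, C/EBP and RUNX act on several of these genes.

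None of the 10 genes passed the test between the groups (limma on log2(TPM + 1), Benjamini-Hochberg adjusted p threshold 0.05), where TPM is the length-scaled transcript share of a library. Over all 14192 genes tested, 2.99% were called lower in Onway and 0.233% were called higher. All 10 genes passed the filter on low values. The log2 difference, Onway minus Control, was negative for 8 of the 10 and had a median of -0.78, while 46.4% of all genes were negative and their median was 0.03. Before adjustment, 2 of the 10 had p under 0.05, and 13.4% of all genes did. Every Onway library was below every Control library for 2 of the 10, Elane and Fcnb, and for 11.5% of all genes. In bulk marrow, fewer cells of a type and less RNA per cell cannot be told apart.

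**Figure D1:**
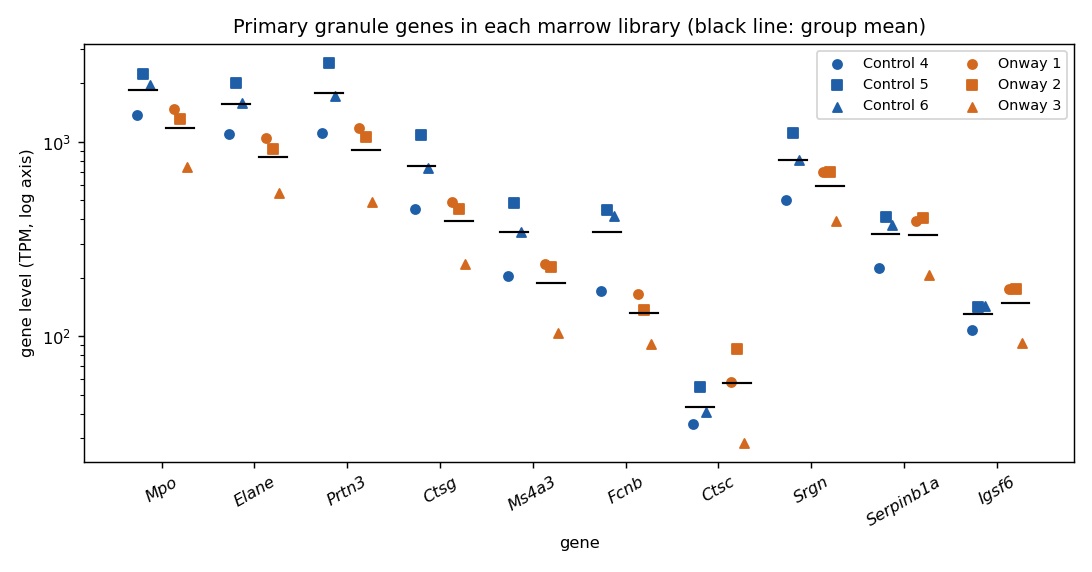
Level of each gene (TPM, log axis) in the 3 Control libraries (blue) and the 3 Onway libraries (orange), with a black line at each group mean. Onway 3 is the lowest of the 6 points for all 10 genes, and the groups are apart for Elane and Fcnb only.

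The libraries differed in ways that all 10 genes shared. Haemoglobin genes took 26.6%, 11.6% and 18.3% of all TPM in Control 4, 5 and 6, and 13.4%, 9.39% and 33.9% in Onway 1, 2 and 3 (exact permutation test, two-sided, p = 1.0, smallest possible p 0.1). Control 4 and Onway 3, each with the largest haemoglobin share of its group, held the lowest value of their group for 10 of 10 genes. Of all genes tested, Control 4 was the lowest of its group for 32.5% and Onway 3 for 61.2%. Onway 3 was the lowest of the 6 libraries for all 10 genes and for 35.2% of all genes tested. Other cell markers also moved between the groups. The limma test called 15 of 15 megakaryocyte and 13 of 14 skeletal muscle genes lower in Onway. It also called 15 of 16 bone and stromal and 9 of 14 endothelial genes lower, and 6 of 17 immediate early genes higher. Called or not, all tested genes of the first 4 lists had a negative difference, and all 17 immediate early genes a positive one. Their summed levels were 2184 to 2443, 774 to 4982, 1102 to 2453 and 105 to 137 TPM in Control for the first 4 lists, and 107 to 180.1, 17.3 to 26.1, 85.9 to 119 and 44.6 to 51.6 TPM in Onway. The immediate early genes summed to 365 to 547 TPM in Control and 1254 to 2959 TPM in Onway. B lineage genes, with 0 of 15 called, summed to 455 to 730.2 TPM in Control and 882 to 1415 TPM in Onway, and T lineage genes, with 0 of 10 called, to 57.6 to 67.7 and 76.4 to 128 TPM. Resident macrophage genes, with 1 of 14 called lower, summed to 344 to 533 TPM in Control and 226 to 253 TPM in Onway. For each of these 3 lists the sums of the groups did not overlap (exact permutation test, two-sided, p = 0.1, the smallest possible). The part of all these lists in the granule gene values was not tested. Secondary and tertiary granule genes, markers of marrow neutrophils, summed to 23979 to 39428 TPM in Control and 27638 to 48268 TPM in Onway, with overlapping ranges.

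Promoters of 4 members whose results are described next are shown because 3 are the serine proteases and the fourth, Fcnb, had the lowest log2 difference of the 10. RefSeq promoter sequences (GRCm38.p6, 250 bases before to 50 after the start) were found for 9 of the 10 genes, all but Serpinb1a. Each line holds the bases before the start of the gene's annotated main transcript, 5′ to 3′ on the gene's strand. In Prtn3 a minor transcript starts farther upstream, at chr10:79874476. Both strands were searched for a PU-box (GAGGAA), a C/EBP motif (TTNNGCAA), a RUNX motif (TGTGGT) and a TATA motif (TATAAA), and capitals mark matches to the first 3.
Elane, chr10:79886062-79886246, plus strand: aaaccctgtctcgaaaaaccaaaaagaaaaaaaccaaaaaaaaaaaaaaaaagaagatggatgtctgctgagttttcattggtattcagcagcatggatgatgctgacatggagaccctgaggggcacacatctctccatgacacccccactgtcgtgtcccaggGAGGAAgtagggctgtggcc
Prtn3, chr10:79879417-79879613, plus strand: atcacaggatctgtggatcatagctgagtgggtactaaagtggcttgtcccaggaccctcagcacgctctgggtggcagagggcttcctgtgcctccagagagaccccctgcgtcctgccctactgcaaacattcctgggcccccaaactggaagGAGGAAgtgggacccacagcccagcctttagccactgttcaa
Ctsg, chr14:56102575-56102824, minus strand: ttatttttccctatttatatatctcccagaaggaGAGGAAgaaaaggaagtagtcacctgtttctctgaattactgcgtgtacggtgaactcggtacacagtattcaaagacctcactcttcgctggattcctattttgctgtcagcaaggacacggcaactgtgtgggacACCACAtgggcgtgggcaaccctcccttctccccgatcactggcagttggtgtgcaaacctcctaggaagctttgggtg
Fcnb, chr2:28084886-28085128, minus strand: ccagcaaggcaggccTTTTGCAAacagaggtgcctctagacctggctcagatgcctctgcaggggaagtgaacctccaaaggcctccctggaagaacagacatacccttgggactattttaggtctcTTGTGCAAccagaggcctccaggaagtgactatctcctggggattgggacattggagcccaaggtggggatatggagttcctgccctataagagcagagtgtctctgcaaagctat

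A PU-box match lay in the promoter of 7 of the 9 genes (Mpo, Elane, Prtn3, Ctsg, Ms4a3, Ctsc and Igsf6) and in 28.3% of all 32841 promoters of the same length. Counted from the RefSeq start, which lies 65 bases inside the annotated main transcript in Elane, 53 in Prtn3, 7 in Fcnb and 0 in Ctsg, it lay 85 to 80 bases before the start in Elane, 95 to 90 before it in Prtn3 and 216 to 211 before it in Ctsg. The C/EBP motif was found in 2 genes, Ms4a3 and Fcnb, and in 10.8% of all promoters, and Fcnb held it 235 to 228 and 123 to 116 bases before the start. In Ms4a3 the PU-box match lay 35 to 40 bases, and the C/EBP match 41 to 48 bases, after the RefSeq start. That RefSeq start lies 46 bases before the start of the annotated main transcript. The PU-box match of Igsf6 lay 39 to 34 bases before a RefSeq start that is 42 bases inside the annotated main transcript. RUNX and TATA motifs were each found in 2 genes, and in 16.8% and 13.6% of all promoters. A match is a run of letters and not a measured binding site, and the 3 proteases' matches are listed as a description.

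Mpo encodes myeloperoxidase, the haem enzyme that makes hypochlorous acid. It was measured at 1369, 2222 and 1953 TPM in Control 4, 5 and 6, and at 1474, 1309.6 and 742 TPM in Onway 1, 2 and 3. Onway 1 lay above Control 4, so the groups overlapped, and the means were 1848 ± 436 and 1175 ± 384 TPM (SD, n = 3 each). The log2 difference was -0.68 (95% interval -1.40 to 0.03, SE 0.31, limma adjusted p = 0.397). Mpo lies at chr11:87793581-87804413 on the plus strand (GRCm38, GENCODE M21). An antisense gene, Gm11505, lies inside it at 2.34 to 7.16 TPM, and no label names the strand of the libraries.

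Elane, Prtn3 and Ctsg encode neutrophil elastase, proteinase 3 and cathepsin G, the serine proteases of the granule, and their highest values were all in Control 5. Elane was measured in Control at 1093, 2013 and 1589.7 TPM and in Onway at 1046, 919.65 and 544 TPM. All 3 Onway libraries were below all 3 Control libraries, though Onway 1 and Control 4 were close. The means were 1565 ± 461 and 836 ± 261 TPM (SD, n = 3 each), and the log2 difference was -0.91 (95% interval -1.65 to -0.17, SE 0.32, limma adjusted p = 0.259). Prtn3 was measured in Control at 1114, 2546 and 1717 TPM and in Onway at 1185, 1058 and 492 TPM. Its groups overlapped through Control 4, which was below Onway 1. Its log2 difference was -0.99 (95% interval -2.01 to 0.03, SE 0.43, limma adjusted p = 0.388). Ctsg was measured in Control at 450.3, 1080.25 and 736 TPM and in Onway at 491, 452 and 235 TPM, again with Control 4 inside the range of Onway. Its log2 difference was -0.92 (95% interval -1.88 to 0.03, SE 0.40, limma adjusted p = 0.392).

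Elane lies at chr10:79886247-79888215 and Prtn3 at chr10:79874476-79883174, both on the plus strand and 3072 bases apart, and Ctsg at chr14:56099881-56102574 on the minus strand. Beyond Elane, Cfd, which encodes complement factor D, was at 1.81 ± 1.04 TPM in Control and 0.203 ± 0.136 in Onway (SD, n = 3 each, limma adjusted p = 0.119). Beside Ctsg, Mcpt8, a protease of basophils, was at 166 ± 125 and 149 ± 113 TPM (SD, n = 3 each). Between the proteases, the ratio of Elane to Ctsg was 2.43, 1.86 and 2.16 in Control and 2.13, 2.03 and 2.32 in Onway, so these ranges overlapped. Within a group the level of Elane varied by up to 1.92-fold and that of Ctsg by up to 2.4-fold.

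Fcnb encodes ficolin B, a lectin that recognises microbial sugars, and Ms4a3 a membrane protein of granulocyte-monocyte progenitors. Fcnb was measured in Control at 169.98, 447.5 and 415 TPM and in Onway at 165, 137 and 91.3 TPM, with no overlap but only a narrow gap between Control 4 and Onway 1. Its means were 344 ± 152 and 131 ± 37.4 TPM (SD, n = 3 each), a ratio of 2.62. The log2 difference was -1.30 (95% interval -2.29 to -0.31, SE 0.42, limma adjusted p = 0.224). Without Control 4 the difference was -1.75 and passed the test (limma adjusted p = 0.0223), and without Control 4 and Onway 3 it was -1.51 (adjusted p = 0.0197). Over the 17 alternatives tried, the limma adjusted p of Fcnb ran from 0.0197 to 0.535. Ms4a3 was measured in Control at 205, 484 and 345 TPM and in Onway at 236, 227 and 104 TPM, with Control 4 below both Onway 1 and Onway 2. Its log2 difference was -0.87 (95% interval -1.89 to 0.14, SE 0.43, limma adjusted p = 0.451). Fcnb lies at chr2:28076378-28084885 and Ms4a3 at chr19:11629496-11640851, both on the minus strand.

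The genes that process, pack and restrain the proteases had log2 differences nearer to 0. Ctsc, which encodes cathepsin C, was measured in Control at 35.4, 54.6 and 40.6 TPM and in Onway at 58.5, 85.7 and 28.3 TPM. Onway held both the highest and the lowest value, and the log2 difference was 0.28 (95% interval -0.67 to 1.24, limma adjusted p = 0.818). Srgn, which encodes serglycin, was measured in Control at 499.6, 1113 and 808 TPM and in Onway at 699, 698 and 392 TPM. Its groups overlapped, with a log2 difference of -0.41 (95% interval -1.24 to 0.42, limma adjusted p = 0.696). Serpinb1a, an inhibitor of elastase, proteinase 3 and cathepsin G, was measured in Control at 223, 409.7 and 371 TPM and in Onway at 389.7, 405 and 207 TPM. Its means were 335 ± 98.4 and 334 ± 110 TPM (SD, n = 3 each), and the log2 difference of -0.02 had a 95% interval of -0.81 to 0.77 (limma adjusted p = 0.988). Its near copies Serpinb1b and Serpinb1c reached at most 0.03 and 0.21 TPM. Igsf6, an immunoglobulin superfamily membrane protein, was measured in Control at 107, 142 and 143 TPM and in Onway at 175, 176 and 92.4 TPM. Its log2 difference was 0.13 (95% interval -0.54 to 0.79, limma adjusted p = 0.901). Igsf6 lies inside Mettl9 on the other strand, and Mettl9 was at 80.5 to 168 TPM, so reads of the 2 genes may not be told apart.

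Single libraries moved several of these differences by more than 1.5 times. Without Onway 3 the log2 difference was -0.38 for Mpo, -0.60 for Prtn3, -0.59 for Ctsg, -0.49 for Ms4a3 and -0.13 for Srgn. Srgn was at -0.14 without Control 5 and at -0.72 without Control 4. None of these passed the test.

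**Figure D2:**
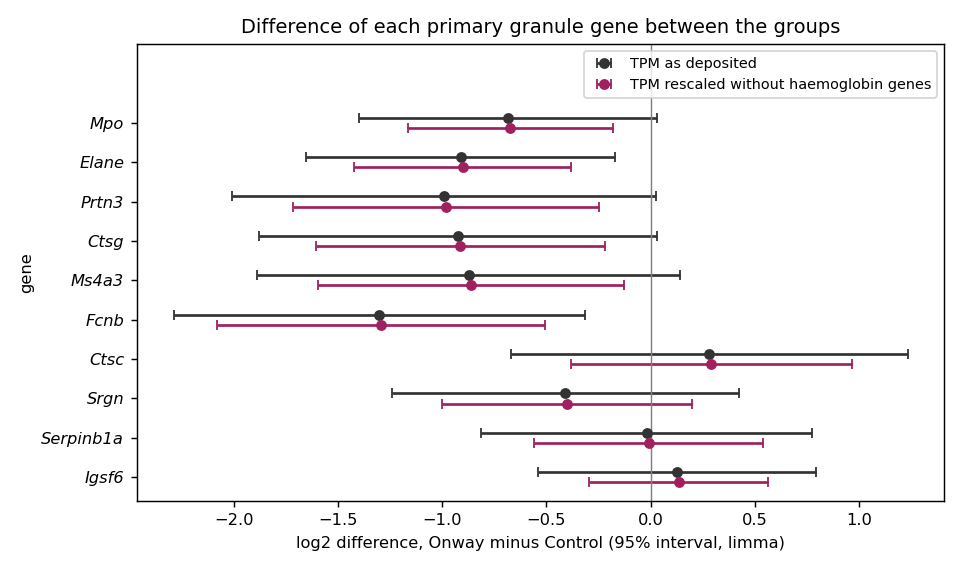
Log2 difference, Onway minus Control, of each gene with its 95% interval from limma, for TPM as deposited (grey) and TPM rescaled without haemoglobin genes (magenta). As deposited, the intervals of Elane and Fcnb lie below 0, and without haemoglobin those of Mpo, Elane, Prtn3, Ctsg, Ms4a3 and Fcnb do.

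Because the haemoglobin share differed between libraries, the TPM of the remaining genes were rescaled to the same total. The groups then did not overlap for 6 of the 10 genes, Mpo, Elane, Prtn3, Ctsg, Ms4a3 and Fcnb, each lower in every Onway library, and for 11.5% of the 14186 genes tested this way. Rescaled, Mpo was measured in Control at 1865, 2514 and 2389 TPM and in Onway at 1702, 1445 and 1122 TPM. Elane was measured in Control at 1488, 2278 and 1945 TPM and in Onway at 1207, 1015 and 822 TPM. Some gaps were narrow: Control 4 and Onway 1 were at 279.7 and 272.0 TPM for Ms4a3, and at 613 and 567 TPM for Ctsg. The mean differences hardly moved, at -0.67 for Mpo, -0.90 for Elane, -0.98 for Prtn3, -0.91 for Ctsg, -0.86 for Ms4a3 and -1.29 for Fcnb, while the intervals narrowed. No gene passed the test (limma adjusted p from 0.0979 for Elane and 0.114 for Fcnb to 0.99 for Serpinb1a). The separation depended on the scaling. Median-ratio scaling instead divided Control 4 by 1.037 and Onway 1 by 1.009. Control 4 then stayed below Onway 1 for Mpo, Prtn3, Ctsg and Ms4a3, so these 4 genes overlapped.

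Ratios within a library do not depend on the haemoglobin share. The summed TPM of Elane, Prtn3 and Ctsg was 11.9, 13.8 and 10.9 times that of their inhibitor Serpinb1a in Control 4, 5 and 6, and 6.99, 6.00 and 6.15 times in Onway 1, 2 and 3. The lowest Control ratio lay above the highest Onway ratio, and the means were 12.2 ± 1.46 and 6.38 ± 0.531 (SD, n = 3 each). Relative to Serpinb1a, 7 of the other 9 genes were lower in every Onway library, as were 6.18% of 14191 genes, and Ctsc and Igsf6 overlapped. A further ratio, chosen after the values were seen, set the genes against 20 secondary and tertiary granule genes, of which Ngp made up 35.1% to 38.6%. The summed TPM of those 20 genes was 33557 ± 8365 in Control and 39053 ± 10490 in Onway (SD, n = 3 each). The mean of this denominator was thus higher in Onway, with overlapping ranges, which lowers the ratio. The 10 genes together were 22.0%, 26.7% and 21.8% of that sum in Control and 12.3%, 13.3% and 10.6% in Onway. By this ratio 7 of the 10 genes, Mpo, Elane, Prtn3, Ctsg, Ms4a3, Fcnb and Srgn, were lower in every Onway library, and 12.1% of all genes were. No p is given for either ratio, since the genes in it were chosen with earlier results known.

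**Figure D3:**
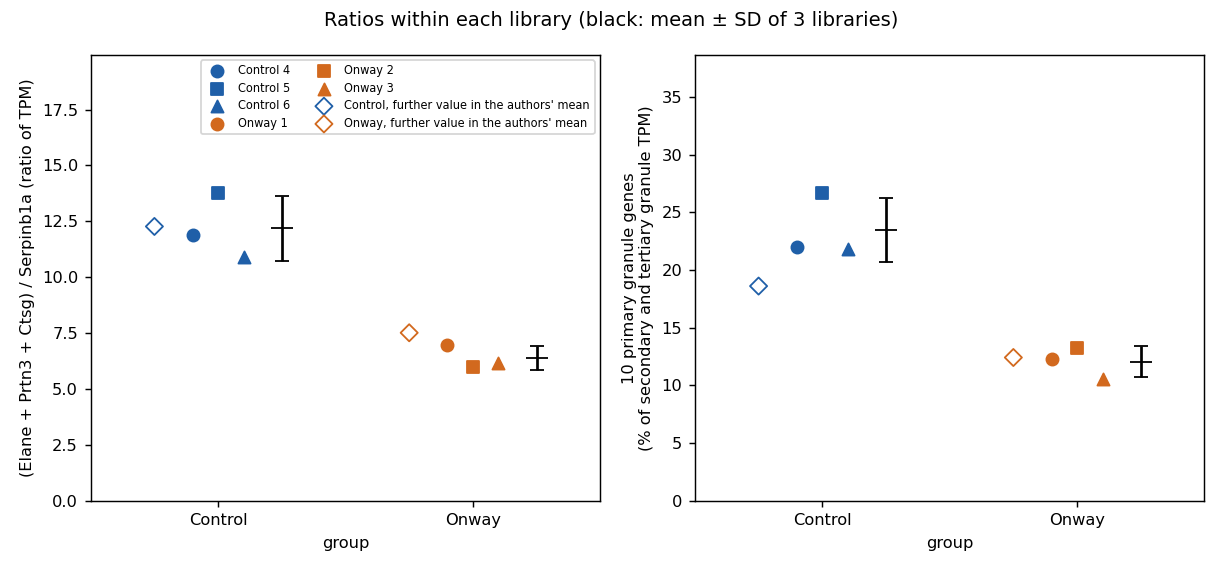
Left, summed TPM of Elane, Prtn3 and Ctsg divided by that of Serpinb1a. Right, summed TPM of the 10 genes as a percent of the secondary and tertiary granule genes; filled points are libraries, open diamonds the further value left by the authors' deposited means, and black marks the mean ± SD. Control libraries lie from 10.9 to 13.8 and from 21.8% to 26.7%, above the Onway libraries at 6.00 to 6.99 and 10.6% to 13.3%.

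The group means in the authors' deposited table are not the means of the 3 listed libraries of a group; taken as means of 4, each leaves 1 further value. In the authors' deposited table Elane had means of 1449 TPM in Control and 869.53 in Onway, which leave 1102 and 969 TPM. For Ctsg the authors' deposited table leaves 488 and 497 TPM, and for Ms4a3 it leaves 233 and 254 TPM, so for these genes the further Control value was below the further Onway value. For Fcnb the authors' deposited table leaves 348 and 170.42 TPM. The protease to Serpinb1a ratio from the authors' deposited table was 12.3 in Control and 7.52 in Onway for the further values, the first inside the range of the Control libraries. As a percent of the secondary and tertiary granule genes, the 10 genes were at 18.6% and 12.4% in the further values from the authors' deposited table, and that Control value was below all 3 Control libraries and above all 3 Onway libraries.

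The order of the levels can be read on the TPM scale, which is per length. In Control, Mpo, Prtn3 and Elane led with overlapping spreads, Srgn and Ctsg followed at 807 ± 307 and 756 ± 315 TPM, and Ms4a3, Fcnb and Serpinb1a lay at 335 to 345 TPM (means, n = 3). Igsf6 at 131 ± 20.5 and Ctsc at 43.5 ± 9.96 TPM came last. In Onway, Fcnb at 131 ± 37.4 TPM stood beside Igsf6 at 148 ± 48.0, and neither neighbour differed beyond its spread. As shares of the group's summed TPM, Serpinb1a was 4.24%, 3.90% and 4.58% in Control and 6.58%, 7.41% and 7.06% in Onway, while Mpo was 21.1% to 26.0% and 23.9% to 25.3%.

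Transcript shares were read in each library, with no test. Elane had 1 transcript, and Ctsg had 99.0% or more in its protein-coding one in every library. Prtn3 held 23.4% to 23.6% of its TPM in retained-intron transcripts in Control and 23.0%, 25.2% and 28.3% in Onway. The main Mpo transcript carried 65.9% of the gene in Control and 67.1% in Onway. Transcripts assembled by the authors made up at most 7.22% of any of the 10 genes.

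By root-mean-square distance between centred log2 profiles over the 6 libraries, Ctsg was nearest to Ms4a3 (0.0617) and Prtn3 to Ctsg (0.0746) among the 10, and Fcnb and Ctsc were farthest apart (0.909). The 10 were also compared with other genes at a mean of 10 TPM or more, leaving out symbols that are predicted gene names. Of these, Elane was most like Prss57 (0.0413), Mpo most like Vegfa (0.0563) and Srgn most like Plac8 (0.0822). Serpinb1a was most like Anxa3 (0.0393) and Igsf6 most like Ralb (0.0372). Fcnb had no close match in this pool, with Bsn nearest at 0.282, and among the 10 it was nearest to Ctsg (0.278).

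Other genes of the pathway did not pass the test either. Of 23 tested genes for other primary granule contents, 16 had a negative and 7 a positive difference, with a median of -0.15. The whole list summed to 7554 ± 935 TPM in Control and 8693 ± 2056 in Onway (SD, n = 3 each), with overlapping ranges. Lyz2, its gene of highest level, was at 5142 ± 998.5 and 6448 ± 1562 TPM (limma adjusted p = 0.671). Glb1, a lysosomal galactosidase, was at 15.6 ± 1.88 TPM in Control and 10.1 ± 1.62 in Onway (SD, n = 3 each, limma adjusted p = 0.199), and Prss57, another granule serine protease, at 38.5 ± 11.4 and 21.2 ± 7.36 TPM (limma adjusted p = 0.304). Of 9 tested protease inhibitors 8 were negative, with a median of -0.37. The sum of the whole inhibitor list was near equal, at 1116 ± 139 TPM in Control and 1070 ± 238 in Onway (SD, n = 3 each). Serpina3f was at 9.16 ± 2.04 and 4.64 ± 0.519 TPM (limma adjusted p = 0.0939), and Serpinb6a at 39.7 ± 7.57 and 24.3 ± 2.45 TPM (limma adjusted p = 0.142). Of 16 sorting and secretion genes 7 were negative and 9 positive, with a median of 0.03, with Hps4 at 9.75 ± 1.17 and 7.66 ± 2.19 TPM and Ap3d1, an AP-3 adaptor subunit, at 32.9 ± 2.52 and 40.7 ± 9.81 TPM.

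The lists of neighbouring stages had medians on both sides of 0. Early neutrophil precursor genes were negative for 11 of 17, with a median of -0.26. Nkg7, also on a list of cytotoxic granule genes, was at 139 ± 43.5 TPM in Control and 69.5 ± 15.5 in Onway (SD, n = 3 each, limma adjusted p = 0.151). No other gene of the 17 had an unadjusted limma p under 0.05. Gstm1 was at 108 ± 28.2 and 77.6 ± 22.4 TPM. Secondary and tertiary granule genes were positive for 18 of 20, with a median of 0.24, and Mmp9, gelatinase B, was at 492 ± 42.2 and 731 ± 239 TPM (limma adjusted p = 0.48). Mature neutrophil genes were positive for 16 of 20 (median 0.29), with the cytokine gene Il1b at 65.7 ± 54.3 and 301 ± 205 TPM and the collagenase gene Mmp8, also in the granule list, at 375 ± 94.97 and 541 ± 139.8 TPM. The summed TPM of the mature neutrophil list was near equal, at 139500 ± 53330 in Control and 138500 ± 42460 in Onway (SD, n = 3 each). Monocyte genes were positive for 12 of 13 (median 0.51), with Fn1 at 64.5 ± 11.4 and 144 ± 51.4 TPM and Ms4a6b at 23.2 ± 3.71 and 38.4 ± 10.7 TPM. Regulators of granulocyte-monocyte progenitors were positive for 14 of 17 (median 0.45). Among them Cebpb, a C/EBP factor of emergency granulopoiesis, was at 11.9 ± 3.76 and 52.3 ± 28.2 TPM (limma adjusted p = 0.059), and Irf8, a factor of the monocyte branch, at 39.4 ± 6.35 and 73.8 ± 14.04 TPM (limma adjusted p = 0.0708). DNA replication and mitosis genes were negative for 11 of 21 and positive for 10 (median -0.02), with Ccnb1 at 77.1 ± 13.1 and 65.9 ± 6.09 TPM and Aurka at 48.3 ± 7.15 and 42.5 ± 6.40 TPM. None of the genes in these 6 lists was called, and the lists were not compared with each other by a test.

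**Figure D4:**
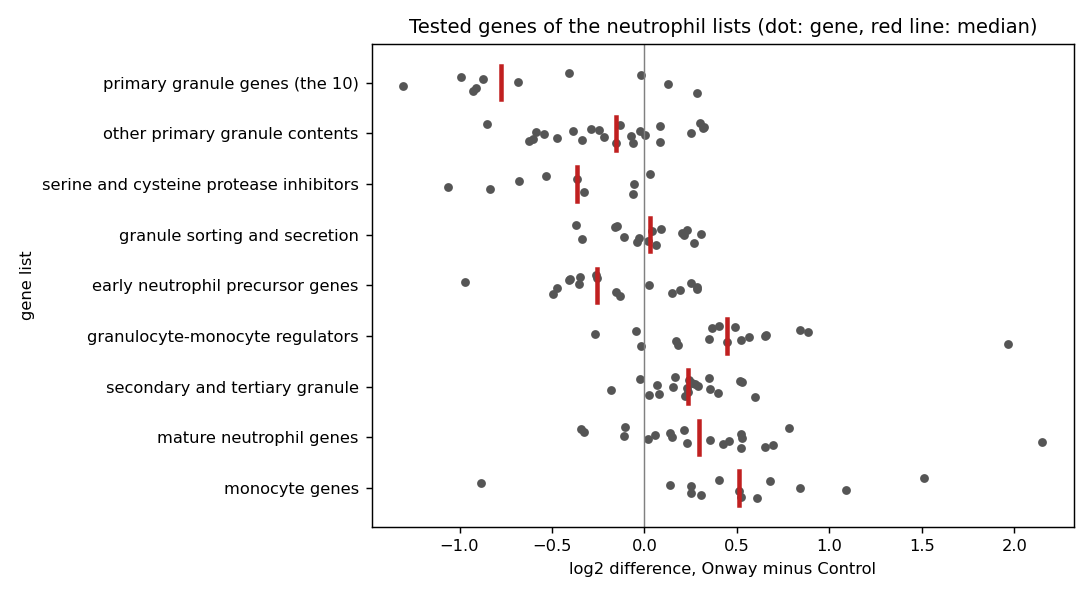
Log2 difference, Onway minus Control, of every tested gene (grey dot) in 9 lists of neutrophil and monocyte genes, with each list's median (red line). The median is -0.78 for the 10 primary granule genes, 0.24 for secondary and tertiary granule genes and 0.51 for monocyte genes.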

How the data were processed

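RNA labelled as from bone marrow cells was sequenced in 6 libraries, 3 per group. The labels' extraction protocol also describes a hormone-induced cell culture, which does not match marrow taken from mice, and the doubt could not be settled from the labels. The authors deposited TPM per transcript (158850 transcripts), with SMARTER mRNA-Seq libraries per the labels' protocols and GRCm38 or mm10 as the build per the submitters' processing notes. The aligner and quantifier are unnamed there (not given in the sources used here). Those deposited TPM sum to 999999.61 to 1000001.04 per library and hold no counts, so the depth of each library is unknown and no interval for counting error can be given. Transcript TPM were summed per gene, and genes whose mean TPM was 1 or more were kept. Log2(TPM + 1) was tested with limma 3.58.1 in R 4.3.3 (mean-variance trend, robust empirical Bayes, two-sided, Benjamini-Hochberg over all 14192 genes, threshold 0.05), after the fit was tested on simulated data. Fold changes are on the log2(TPM + 1) scale, which understates the change of low genes. Single sums were compared by an exact permutation test over 20 assignments. The columns named N were taken as Onway libraries of the same number. Group means in the deposited TPM table were used only as the authors' values.

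All 10 genes are named, with the 2 genes of smallest p in each granule, precursor, regulator, neutrophil, monocyte and replication list (1 gene that the rule would name is not reported here), the most alike genes and neighbours. Lyz2 is also named, as the gene of highest level in its list. The members and lists were chosen with earlier results of these data known. The alternatives, 17 in all, changed the pseudocount, filter, scaling, transcript set, variance model, haemoglobin genes and libraries, and 2 of them were added after seeing the data.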

Additional observations from a re-analysis of the deposited data

How the results depend on the processing

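Over 17 alternatives, 2 of which (without Control 5 and Onway 3, and without haemoglobin genes and Onway 3) were chosen after seeing the data, only Fcnb was ever called among the 10 genes, in 2 of them (1 member lower without Control 4, and 1 without Control 4 and Onway 3). Mpo, Elane, Prtn3, Ctsg, Ms4a3 and Fcnb kept a negative difference in all 17, but its size rested on the libraries used: Mpo ranged from -0.89 to -0.23, Elane from -1.15 to -0.43, Prtn3 from -1.295 to -0.30, Ctsg from -1.25 to -0.29, Ms4a3 from -1.20 to -0.20 and Fcnb from -1.75 to -0.81, the smallest sizes being without Control 5 and Onway 3. Leaving out each library in turn gave 0 to 1 members lower, 246 to 456 genes lower and 16 to 87 higher, against 424 and 33. A mean of at least 5 TPM gave 183 lower and 20 higher, median-ratio scaling 61 higher, leaving out Control 4 and Onway 3 gave 207 lower and 97 higher, leaving out Control 5 and Onway 3 gave 55 higher, and leaving out haemoglobin genes and Onway 3 gave 236 lower. Some small differences turned sign. With 1 library left out, Igsf6 ranged from -0.029 to 0.43, Ctsc from -0.069 to 0.71 and Serpinb1a from -0.29 to 0.29. Serpinb1a was 0.026 without Control 4 and Onway 3, 0.46 without Control 5 and Onway 3 and 0.16 without haemoglobin genes and Onway 3, and Srgn was 0.14 without Control 5 and Onway 3. The cause was not tested. The groups share no replicate numbers: No paired analysis was possible because the Control libraries are numbered 4 to 6 and the Onway libraries 1 to 3. With 3 libraries a group and TPM only, depth cannot be used to judge precision.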
